A study of Mus musculus with 16 samples.

Results

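The transcripts of 7 enzymes were examined in somatodendritic and axonal RNA of *Hnrnpr*-/- and +/+ motoneurons. They are *Ogt* and *Oga*, which add and remove the O-GlcNAc modification of proteins, and *Gfpt1*, *Gfpt2*, *Gnpnat1*, *Pgm3* and *Uap1*, the enzymes of the hexosamine pathway that make its sugar donor. The members were chosen by gene symbol, all 7 were found among the 46320 genes of the count table, and all 7 passed the filter on low counts that left 19964 genes. Lumbar motoneurons of mouse embryos at day 13 were isolated by panning on the p75 neurotrophin receptor and grown in microfluidic chambers, in which axons cross into a compartment of their own. Both sides of the chamber received CNTF at 5 ng/ml, and the axonal side alone received BDNF at 20 ng/ml, in every group. The 4 groups were +/+ somatodendritic, *Hnrnpr*-/- somatodendritic, +/+ axonal and *Hnrnpr*-/- axonal, with 4 libraries each. The *Hnrnpr*-/- mice carry a CRISPR/Cas9 deletion of the first exons of *Hnrnpr* in all cells, on a C57Bl/6 background, so that the motoneurons and any other cells in the chambers lacked the gene alike. The study asked whether hnRNP R loss alters transcripts in axons, and it examined Ogt as a protein partner of hnRNP R.

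O-GlcNAc is a single sugar, N-acetylglucosamine, on serine or threonine residues of nuclear and cytosolic proteins. Ogt transfers it from UDP-GlcNAc, and Oga hydrolyses it, so that a modification can be turned over many times during the life of a protein. UDP-GlcNAc is the end product of the hexosamine pathway. Gfpt1 and Gfpt2 carry out the first and rate-limiting step, the conversion of fructose-6-phosphate and glutamine to glucosamine-6-phosphate. Gnpnat1 acetylates this product with acetyl-CoA, Pgm3 moves the phosphate, and Uap1 couples the sugar to UTP. UDP-GlcNAc also feeds N-glycans, glycosaminoglycans and other glycans. In neurons, O-GlcNAc is found on cytoskeletal and synaptic proteins, on adaptors of mitochondrial transport and on translation factors.

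In the GRCm39 coordinates of the count table, *Ogt* lies on chromosome X from 100683617 to 100727957, on the plus strand, with 5437 bases of exons. *Oga* lies on chromosome 19 from 45738694 to 45772274, on the minus strand. *Gfpt1* spans 87019828 to 87069189 of chromosome 6, and its paralog *Gfpt2* spans 49684981 to 49729448 of chromosome 11, both on the plus strand. *Gnpnat1* on chromosome 14 (45613878 to 45626444), *Pgm3* on chromosome 9 (86423997 to 86453927) and *Uap1* on chromosome 1 (169968792 to 170002533) are on the minus strand. Reads were counted on exons of these models.

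For 6 of the 7 genes, RefSeq promoter windows from 250 bases before to 50 bases after the start were at hand in build GRCm38.p6. The windows are shown for *Gfpt1*, the gene with the largest difference between the compartments, and for *Pgm3* and *Ogt*, whose levels moved in opposite directions across libraries. Capitals mark matches on either strand to ACGTG and CCACG, letters found in elements bound by the stress factors Xbp1 and Atf6. Where both matches overlap they form 1 run of capitals.
Gfpt1, chr6:87042596-87042895, plus strand: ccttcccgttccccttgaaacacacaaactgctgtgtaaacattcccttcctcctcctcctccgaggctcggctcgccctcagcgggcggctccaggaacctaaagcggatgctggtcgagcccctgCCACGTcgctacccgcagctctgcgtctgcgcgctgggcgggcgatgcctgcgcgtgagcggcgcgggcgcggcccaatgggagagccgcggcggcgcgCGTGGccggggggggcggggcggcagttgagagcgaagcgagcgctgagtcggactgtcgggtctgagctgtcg
Pgm3, chr9:86571793-86572092, minus strand: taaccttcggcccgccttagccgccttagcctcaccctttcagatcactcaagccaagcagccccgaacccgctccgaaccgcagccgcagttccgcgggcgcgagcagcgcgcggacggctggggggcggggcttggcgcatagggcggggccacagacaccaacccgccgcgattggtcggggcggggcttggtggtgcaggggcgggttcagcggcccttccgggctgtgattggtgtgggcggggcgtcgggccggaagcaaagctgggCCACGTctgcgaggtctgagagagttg
Ogt, chrX:101639801-101640100, plus strand: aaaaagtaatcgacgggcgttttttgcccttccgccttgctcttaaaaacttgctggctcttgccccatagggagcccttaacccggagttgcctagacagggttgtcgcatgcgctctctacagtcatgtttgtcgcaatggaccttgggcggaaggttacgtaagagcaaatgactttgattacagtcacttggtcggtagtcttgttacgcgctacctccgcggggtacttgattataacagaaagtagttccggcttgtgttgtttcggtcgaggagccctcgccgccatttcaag
The *Gfpt1* window held 1 match to ACGTG and 2 to CCACG, and the *Pgm3* and *Uap1* windows held 1 match to each. The *Gfpt2* window held 1 match to ACGTG alone, and the *Oga* window and both *Ogt* windows held no match to either. Among 32851 mouse promoter windows of the same length, 19.6% held ACGTG, 32.8% held CCACG and 12% held both. These matches describe the sequence and are no test of binding. The windows printed were chosen by the levels of their genes, and a link between sequence and level was not tested.

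The targeted gene followed the labels in all 16 libraries. *Hnrnpr* itself averaged 204 ± 27.1 TMM-scaled CPM, a read count relative to library size (SD, n = 4), in the somatodendritic compartment of +/+ motoneurons against 0.860 ± 0.304 CPM without the gene, and 212 ± 141 against 0.876 ± 0.222 CPM in axons. Library totals ranged from 22024923 to 34864151 counts, and the members had between 141 counts (*Gfpt2*) and 13398 counts (*Oga*) in a library. Some markers of other cells had higher levels in the axonal libraries. Of the 8 fibroblast and mural genes, the mural genes *Acta2*, *Tagln* and *Pdgfrb* were called higher by edgeR in both genotypes, and the other 5, among them the fibroblast genes *Dcn* and *Lum*, were not called in either. Of the 6 astroglial genes, *Fabp7* and *Sox9* were called higher in both genotypes and *Slc1a3* in +/+ motoneurons (its difference between the genotypes was -0.41, edgeR adjusted p = 1.00), and *Gfap*, *Aqp4* and *Slc1a2* were not called. The 8 fibroblast and mural markers summed to 74.2 to 1329 CPM in the somatodendritic compartment against 1263 to 11290 CPM in axons, and the 6 astrocyte and radial glia markers to 802 to 1870 and 1726 to 4398 CPM. The 8 motoneuron markers summed to 17.8 to 35.3 CPM in the somatodendritic compartment against 3.39 to 16.7 CPM in axons. In +/+ somatodendritic libraries *Slc18a3* averaged 8.04, *Slc5a7* 6.12, *Ngfr* 5.44, *Isl1* 5.09, *Prph* 1.31 and *Chat* 0.899 CPM, whereas *Isl2* was near 0 and *Mnx1* was at 0 in 3 of the 4 groups. *Chat*, *Slc18a3* and *Ngfr* were called lower in axons by edgeR in both genotypes, *Slc5a7*, *Isl1* and *Prph* were not called in either, and *Isl2* and *Mnx1* did not pass the filter. Every gene of the other 4 marker lists had a read in each group. The 6 oligodendroglia and Schwann cell markers summed to 162 to 659 CPM in the somatodendritic compartment and to 189 to 1465 CPM in axons, and of these *Olig1* was called higher in axons in both genotypes (1.55 and 1.54). The 6 microglia markers summed to 0.610 to 228 CPM over the 16 libraries, and none was called in either genotype. The part of these cells in the differences between the compartments was not tested. Library 2 of the +/+ axonal group stood apart, with 2424 CPM of 4 nuclear RNAs against 524 to 1207 CPM in the other 3 libraries of that group. Of these RNAs *Neat1* was called higher (2.11 and 1.71) and *Meg3* lower (-1.67 and -2.16) in axons of both genotypes, *Miat* was not called, and *Malat1* had 2.26 (edgeR adjusted p = 0.00051) in +/+ and 0.74 (adjusted p = 0.13) in *Hnrnpr*-/- motoneurons. In these bulk samples, fewer cells of a type and less of a transcript per cell cannot be told apart.

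To compare the members with each other, CPM was divided by exon length, since a longer transcript gives more reads. *Oga* and *Ogt* were the most abundant members in +/+ somatodendritic RNA, at 58.8 and 54.7 CPM per kb, and the ranges of their libraries overlapped. They were followed by *Uap1* at 24.0, *Gfpt1* at 15.0, *Pgm3* at 5.68, *Gnpnat1* at 2.93 and *Gfpt2* at 2.93 CPM per kb. From *Ogt* down to *Gnpnat1* each neighbour in this order lay apart from the next without overlap of the 4 libraries, whereas *Gnpnat1* and *Gfpt2* overlapped. In +/+ axons the order was *Ogt* at 28.2, *Oga* at 19.3, *Uap1* at 18.8, *Pgm3* at 6.44, *Gnpnat1* at 6.23, *Gfpt2* at 3.14 and *Gfpt1* at 2.57 CPM per kb. Here the libraries of each pair of neighbours overlapped, except those of *Uap1* and *Pgm3*. *Gfpt1* thus held the fourth place in somatodendritic and the last place in axonal RNA of both genotypes. It made up 9.16% of the summed level per kb of the 7 members in +/+ somatodendritic and 3.03% in +/+ axonal libraries, whereas *Uap1* made up 14.6% and 22.2%.

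**Figure D1:**
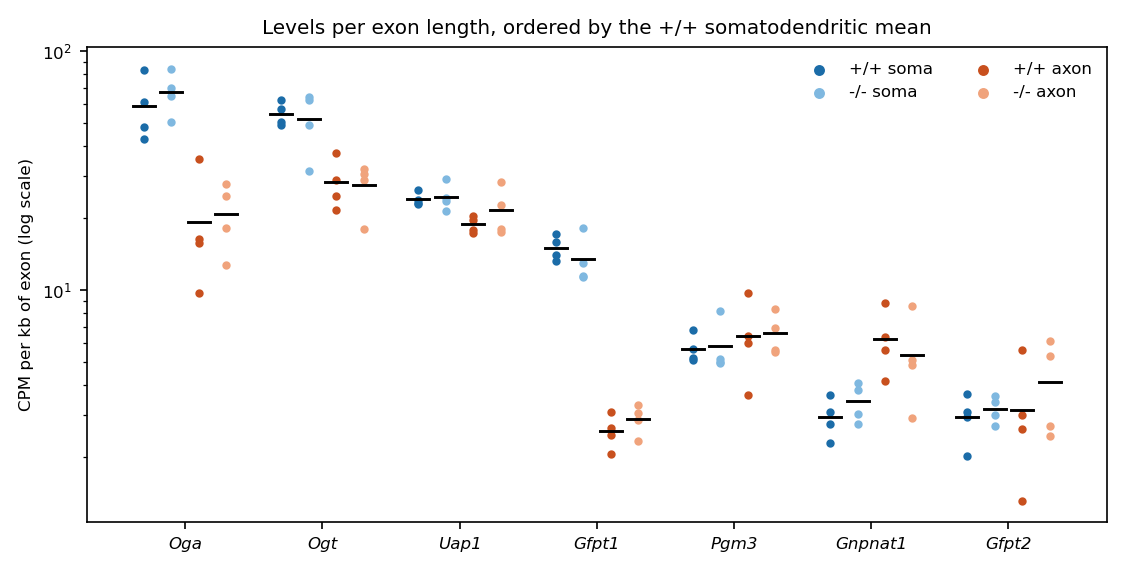
Level of each gene per exon length in CPM per kb (vertical axis, log scale) for the 7 genes (horizontal axis), with 1 point for each of the 16 libraries and a bar at the mean of 4. *Gfpt1* falls from 15.0 CPM per kb in +/+ somatodendritic to 2.57 CPM per kb in +/+ axonal libraries, below *Gfpt2* at 3.14 CPM per kb.

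Both enzymes of O-GlcNAc cycling had lower transcript levels in axons than in the somatodendritic compartment, in either genotype, and the synthesis enzymes split. *Gfpt1* was lower in axons, *Gnpnat1* was higher in +/+ axons, and *Gfpt2*, *Pgm3* and *Uap1* did not pass the threshold. In +/+ motoneurons 4 of the 7 members passed an edgeR adjusted p of 0.05 between axonal and somatodendritic RNA, where 57.5% of all genes tested did. Of these, 3 were lower in axons, a direction in which 27.4% of all genes were called, and 1 was higher, against 30.1%. In *Hnrnpr*-/- motoneurons 3 of 7 were called, all lower, where 54.2% of all genes were called, 26.8% as lower and 27.5% as higher. The ranges of the 4 axonal and 4 somatodendritic libraries did not overlap for 5 of the 7 members in +/+ motoneurons, against 52.4% of all genes, and for 2 of the 7 in *Hnrnpr*-/- motoneurons, against 51.4%. The median log2 fold change of the members was -0.35 in +/+ motoneurons, where that of all genes was 0.07.

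*Ogt*, the transferase, had 273, 309, 339 and 267 CPM in +/+ somatodendritic libraries 1 to 4, and 157, 204, 135 and 118 CPM in the axonal ones. Without hnRNP R its somatodendritic values were 339, 265, 348 and 171 CPM and its axonal values 166, 175, 157 and 97.6 CPM. In +/+ motoneurons every axonal library lay below every somatodendritic library, whereas in *Hnrnpr*-/- motoneurons the lowest somatodendritic library, number 4, lay just under the highest axonal one. The log2 fold change of axonal against somatodendritic RNA was -0.95 (standard error 0.24, 95% interval -1.47 to -0.44, edgeR adjusted p = 0.0039) in +/+ motoneurons. It was -0.92 (standard error 0.24, adjusted p = 0.0055) in *Hnrnpr*-/- motoneurons. The axonal mean was 0.517 times the somatodendritic mean in +/+ and 0.530 times in *Hnrnpr*-/- motoneurons.

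*Oga*, the hydrolase, was also lower in axons. It had 328, 418, 292 and 567 CPM in +/+ somatodendritic libraries and 111, 107, 66.4 and 241 CPM in +/+ axonal libraries. The *Hnrnpr*-/- values were 479, 442, 344 and 574 CPM against 189, 168, 86.3 and 124 CPM in axons. The compartments did not overlap in either genotype. The log2 fold change was -1.61 (standard error 0.36, 95% interval -2.37 to -0.85, edgeR adjusted p = 0.0017) in +/+ and -1.70 (standard error 0.36, adjusted p = 0.0014) in *Hnrnpr*-/- motoneurons.

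*Gfpt1*, the rate-limiting enzyme of the pathway, had the largest difference of the 7. It had 89.5, 110, 84.6 and 101 CPM in +/+ somatodendritic libraries and 15.8, 17.0, 13.2 and 19.8 CPM in +/+ axonal libraries. The *Hnrnpr*-/- libraries had 116, 72.3, 73.1 and 83.3 CPM against 21.1, 18.4, 15.1 and 19.7 CPM. Each compartment was narrow and the gap between them wide. The log2 fold change was -2.55 (standard error 0.19, 95% interval -2.95 to -2.14, edgeR adjusted p = 2.5e-06) in +/+ and -2.22 (standard error 0.19, adjusted p = 1.2e-05) in *Hnrnpr*-/- motoneurons. The axonal mean was 0.171 times the somatodendritic mean in +/+ motoneurons.

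Its paralog *Gfpt2* was close to level between the compartments. It had 9.17, 6.34, 9.68 and 11.5 CPM in +/+ somatodendritic libraries and 9.36, 4.11, 8.21 and 17.6 CPM in +/+ axonal libraries. The axonal libraries spread to both sides of the somatodendritic ones. The log2 fold change was 0.10 (95% interval -0.72 to 0.91, edgeR adjusted p = 0.84) in +/+ and 0.38 (-0.44 to 1.20, adjusted p = 0.42) in *Hnrnpr*-/- motoneurons. The ratio of *Gfpt1* to *Gfpt2* per kb was 5.44 ± 2.02 (SD, n = 4) in +/+ somatodendritic and 1.04 ± 0.663 in +/+ axonal libraries, and 4.21 ± 0.592 against 0.792 ± 0.297 in *Hnrnpr*-/- motoneurons. In +/+ axons the ratio was 2.02 in library 2, which stood apart, and 0.548 to 0.824 in the other 3 libraries. In *Hnrnpr*-/- axons it was 1.17 in library 2 and 0.503 to 0.868 in the others, so that *Gfpt1* lay below *Gfpt2* per length in 3 of 4 axonal libraries of each genotype.

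*Gnpnat1*, the acetyltransferase, was the member that was higher in axons. It had 8.38, 11.2, 10.0 and 13.2 CPM in +/+ somatodendritic libraries and 15.2, 23.1, 20.5 and 32.3 CPM in +/+ axonal libraries. All 4 axonal libraries lay above all 4 somatodendritic ones. The log2 fold change was 1.09 (standard error 0.30, 95% interval 0.45 to 1.73, edgeR adjusted p = 0.0065). The *Hnrnpr*-/- values were 10.1, 14.8, 11.1 and 14.0 CPM against 17.7, 10.7, 18.7 and 31.4 CPM, and library 2 was lower in axons than in the soma. There the log2 fold change was 0.65 (standard error 0.30, adjusted p = 0.076), which reached 0.85 (adjusted p = 0.020) without *Hnrnpr*-/- axonal library 2, 0.69 (adjusted p = 0.050, called) without +/+ axonal library 4, and 0.33 (adjusted p = 0.34) without *Hnrnpr*-/- axonal library 4. The genotypes were not shown to differ in this value, since the difference of -0.44 had a 95% interval of -1.33 to 0.46.

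*Gnpnat1* shares sequence with other genes, so its counts are uncertain. Its transcript matched the processed pseudogene *Gm7623* over 408 bases at 98.5% identity, and its counts held fractions of reads divided among more than a pair of places in 14 of 16 libraries. *Gm7623* itself had 1.17 ± 0.216 CPM in +/+ somatodendritic libraries against 2.31 ± 0.665 CPM in +/+ axons. The span of *Gnpnat1* also overlaps that of *Styx*, a phosphatase-like gene on the other strand, over 731 bases, its transcripts matched *Gnpnat1* over 2154 bases at 100% identity, and *Styx* had 2.80 ± 0.798 CPM in +/+ somatodendritic libraries. In +/+ axons its median was 2.96 CPM, with 12 CPM in library 2, which stood apart. The kit does not mark the strand, so reads from the overlap cannot be told apart.

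*Pgm3*, the mutase, had 30.2, 27.9, 27.3 and 36.3 CPM in +/+ somatodendritic libraries and 32.1, 19.6, 34.5 and 52.0 CPM in +/+ axonal libraries. The ranges overlapped, and the log2 fold change was 0.18 (95% interval -0.37 to 0.73, edgeR adjusted p = 0.56). The *Hnrnpr*-/- libraries had 26.6, 27.7, 26.7 and 43.7 CPM against 29.4, 30.2, 37.2 and 44.6 CPM in axons, and the log2 fold change there was 0.18 (-0.37 to 0.73, adjusted p = 0.57). *Pgm3* overlaps *Dop1a*, a gene of vesicle traffic on the other strand, over 13863 bases of their spans, introns included. Their transcripts matched over 989 bases at 99.9% identity. *Dop1a* went from 80.6 ± 12.9 CPM in the +/+ somatodendritic compartment to 16.7 ± 6.15 CPM in +/+ axons, and its part in the *Pgm3* counts was not tested. *Pgm3* also shared 653 bases at 100% identity with *Rwdd2a*, which had a mean of 533.5 counts per library.

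*Uap1*, the last enzyme of the pathway, had 75.4, 78.8, 76.7 and 86.4 CPM in +/+ somatodendritic libraries and 58.7, 57.3, 67.7 and 64.9 CPM in +/+ axonal libraries. The compartments did not overlap, yet the log2 fold change of -0.35 (standard error 0.16, 95% interval -0.69 to -0.02) had an edgeR adjusted p of 0.068. It passed the threshold with voom (-0.36, adjusted p = 0.023), with the replicate block (-0.35, adjusted p = 0.049) and without *Hnrnpr*-/- axonal library 1 (-0.36, adjusted p = 0.032). The *Hnrnpr*-/- values were 96.3, 79.9, 77.7 and 70.8 CPM against 93.2, 59.6, 75.1 and 57.9 CPM, and the log2 fold change was -0.18 (-0.52 to 0.15, adjusted p = 0.34).

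**Figure D2:**
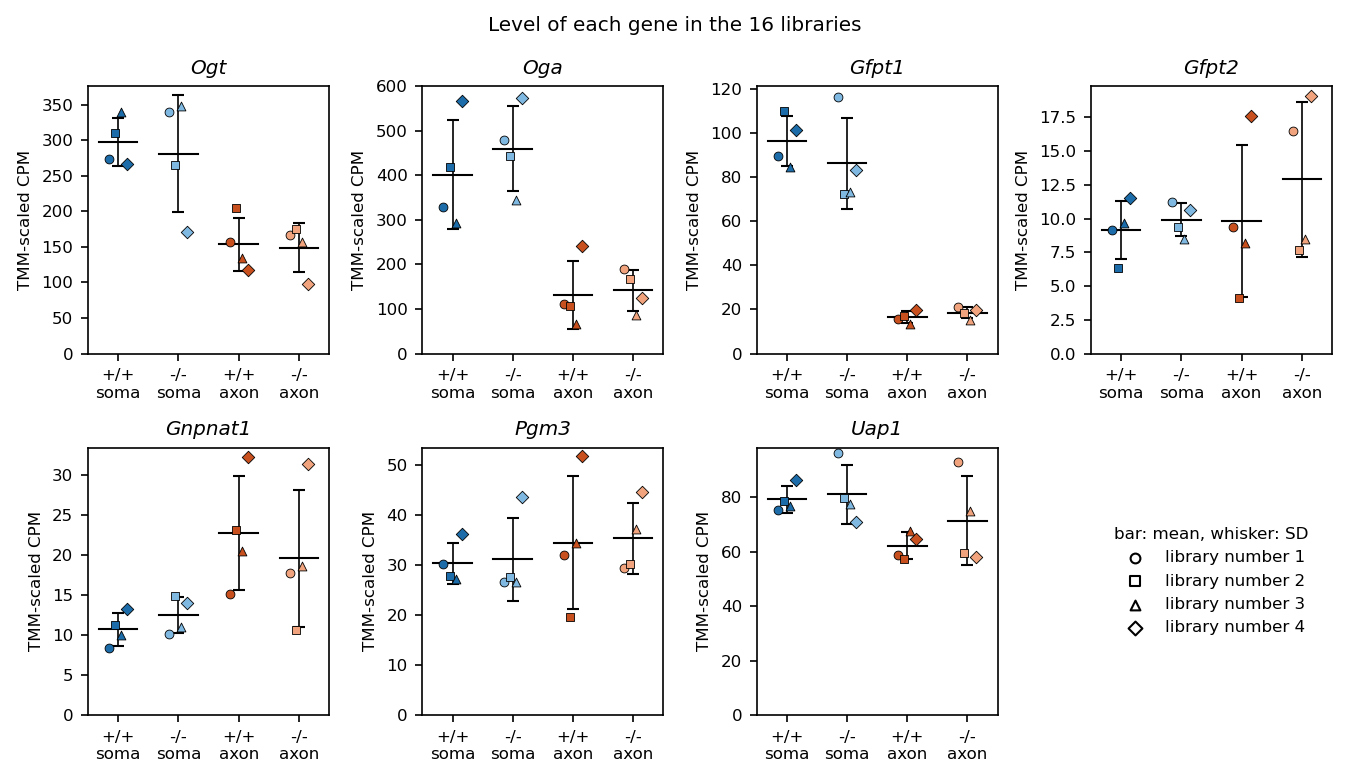
Level of each gene in TMM-scaled CPM (vertical axes, from 0) in the 4 groups (horizontal axes), with a symbol for each library number, a bar at the mean and whiskers of 1 SD (n = 4). *Gfpt1* lies between 72.3 and 116 CPM in all somatodendritic and between 13.2 and 21.1 CPM in all axonal libraries, whereas the libraries of +/+ and -/- overlap for every gene.

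Leaving out +/+ axonal library 2, the library that stood apart, changed no call of a member in +/+ motoneurons. The log2 fold change in +/+ motoneurons was then -1.12 for *Ogt*, -1.53 for *Oga*, -2.57 for *Gfpt1*, 1.08 for *Gnpnat1* and -0.32 for *Uap1*. Those of *Gfpt2* and *Pgm3* moved to 0.35 and 0.37, with edgeR adjusted p values of 0.40 and 0.17.

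For the genotype, no member was called in either compartment. By edgeR 0 of 7 members passed the adjusted threshold in the somatodendritic compartment, where 0.00501% of all genes were called (*Hnrnpr* alone), and 0 of 7 in axons, where 0.01% were called (*Hnrnpr* and *Gm13373*, a predicted gene named after its values were seen). At an unadjusted p under 0.05 the count was 0 of 7 in both compartments, in edgeR and in both settings of DESeq2, where edgeR gave 0.601% of all genes in the somatodendritic compartment and 3.88% in axons. By voom with library weights it was 1 in the somatodendritic compartment, *Gfpt1* with a log2 fold change of -0.29 (adjusted p = 0.57), and 0 in axons. The share of all genes by voom is not given here. The adjusted p in edgeR was 1 for each member in both compartments.

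The sizes of the differences between *Hnrnpr*-/- and +/+ motoneurons were small beside their intervals. For *Ogt* the log2 fold change was -0.08 (95% interval -0.59 to 0.43) in the somatodendritic compartment and -0.04 (-0.56 to 0.47) in axons. For *Oga* it was 0.20 (-0.55 to 0.94) and 0.11 (-0.64 to 0.86). For *Gfpt1* the values were -0.16 (-0.54 to 0.22) and 0.17 (-0.21 to 0.56), and for *Gfpt2* 0.11 (-0.70 to 0.93) and 0.40 (-0.42 to 1.21). *Gfpt2* in axons was the largest of the 14 values, with means of 9.82 ± 5.66 CPM in +/+ and 12.9 ± 5.74 CPM in *Hnrnpr*-/- libraries that overlapped. It became 0.85 without +/+ axonal library 4 (edgeR unadjusted p = 0.035, adjusted p = 0.84). For *Gnpnat1* they were 0.22 (-0.41 to 0.86) and -0.22 (-0.85 to 0.41). *Pgm3* had 0.04 (-0.51 to 0.58) and 0.03 (-0.51 to 0.58), and *Uap1* had 0.03 (-0.30 to 0.37) and 0.20 (-0.13 to 0.54). *Uap1* had the narrowest intervals of the 7.

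The genotype effect was also compared between the compartments. None of the 7 members passed by edgeR, with adjusted p values of 1.00, 0 of 7 at an unadjusted p under 0.05 in edgeR, DESeq2 and voom, and 0% of all genes called. Among all genes 265 had an unadjusted p under 0.05 in edgeR, and DESeq2 with default settings called 1 gene. The largest differences among the members were -0.44 for *Gnpnat1* (95% interval -1.33 to 0.46) and 0.33 for *Gfpt1* (-0.21 to 0.88). Without 1 library the *Gnpnat1* value ranged from -0.76 (without *Hnrnpr*-/- axonal library 4) to -0.22 (without +/+ axonal library 4). That of *Gfpt1* ranged from 0.24 to 0.52, the latter without *Hnrnpr*-/- somatodendritic library 1 (edgeR unadjusted p = 0.043, adjusted p = 1.00), and that of *Gfpt2* from 0.03 to 0.71 (without +/+ axonal library 4). For *Ogt* the difference was 0.04 (-0.68 to 0.76).

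**Figure D3:**
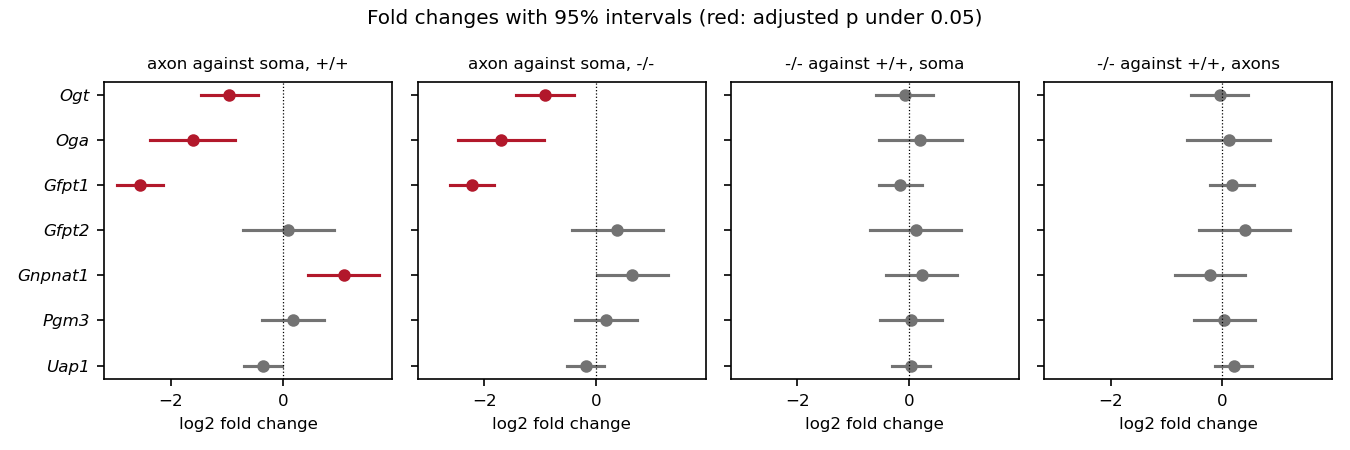
Log2 fold change of each gene (horizontal axes) with its 95% interval from edgeR, for axonal against somatodendritic RNA in each genotype and for *Hnrnpr*-/- against +/+ in each compartment. Points in red have an adjusted p under 0.05; all 14 values for the genotype are grey and all their intervals span 0.

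The libraries of a group differed in the balance of *Ogt* and *Oga*, and they did so by library number. The ratio of *Ogt* to *Oga* per kb was 1.04, 0.929, 1.46 and 0.590 in +/+ somatodendritic libraries 1 to 4, and 0.888, 0.752, 1.27 and 0.374 in *Hnrnpr*-/- somatodendritic libraries. In axons it was 1.78, 2.40, 2.55 and 0.611 in +/+ and 1.10, 1.30, 2.29 and 0.988 in *Hnrnpr*-/- motoneurons. Library 3 was the highest and library 4 the lowest in all 4 groups. Same-numbered libraries of a genotype may come from 1 culture, so the groups are not 4 separate observations. At each number the axonal ratio exceeded the somatodendritic ratio of the same genotype. The ratio is a quotient of members and was not tested. Axonal library 3 also had the highest sum of fibroblast and mural markers in both genotypes, 11290 CPM in +/+ and 10187 CPM in *Hnrnpr*-/-. In the somatodendritic compartment library 3 had 749 CPM in +/+, the highest, and 1327 CPM in *Hnrnpr*-/-, beside 1329 CPM in library 4. The part of these cells in the ratio was not tested.

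**Figure D4:**
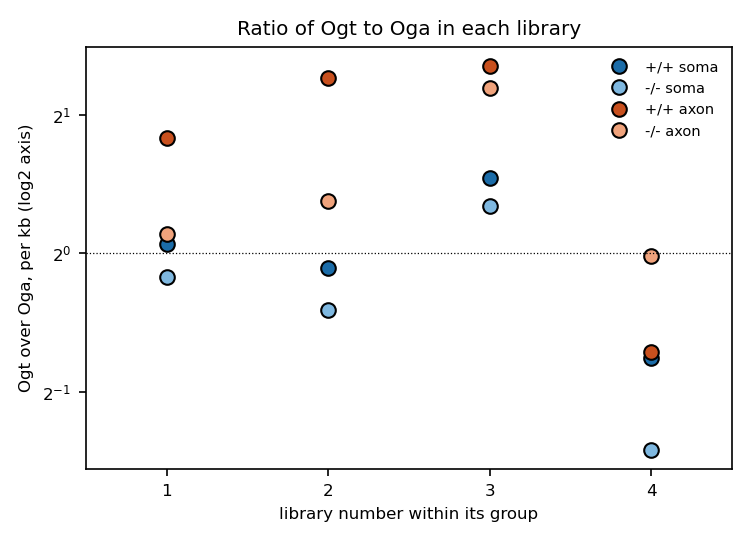
Ratio of *Ogt* to *Oga*, each per kb (vertical axis, log2 scale), by library number within the group (horizontal axis), with 1 point per library and colours for the 4 groups. Number 3 lies between 1.27 and 2.55 and number 4 between 0.374 and 0.988.

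Library 4 also had the lowest *Ogt* and the highest *Pgm3* in all 4 groups. Once group means were removed, log2 CPM of *Ogt* and *Pgm3* had a Pearson correlation of -0.87 over the 16 libraries, and that of *Oga* and *Gfpt1* was 0.70. *Gfpt2* and *Pgm3* had 0.71, while *Ogt* and *Oga* had -0.26. The 5 stress genes did not share 1 direction. *Pgm3* had 0.89 with *Hspa5*, the chaperone BiP of the endoplasmic reticulum. With the stress transcription factors it had 0.84 for *Xbp1*, 0.57 for *Atf6* and 0.50 for *Ddit3*, but -0.56 for *Atf4*. *Ogt* had -0.85 with *Xbp1*, -0.71 with *Hspa5*, -0.50 with *Ddit3* and -0.32 with *Atf6*, but 0.68 with *Atf4*. Of the other members, *Gfpt2* had 0.76 with *Xbp1* and 0.55 with *Hspa5*, *Gnpnat1* 0.67 and 0.46, and *Oga* 0.38 and 0.18. *Gfpt1* had 0.19 and -0.03, and *Uap1* had 0.16 and 0.07. *Xbp1* was at 149, 160, 172 and 190 CPM in library 4 of the 4 groups and at 82.3 to 154 CPM in the other libraries. These correlations are descriptions over libraries that share numbers, preparation and scaling.

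*Ogt* lies on the X chromosome, and the libraries differed in sex-linked transcripts. The 4 Y-linked genes examined (*Ddx3y*, *Eif2s3y*, *Kdm5d* and *Uty*) summed to 114 and 117 CPM in +/+ library 4 of both compartments, with *Xist* at 3.05 and 0.183 CPM. They summed to 43.7 to 65.3 CPM in library 1 of all 4 groups and to 0.0331 to 4.24 CPM in the other libraries. *Hnrnpr*-/- library 4, with Y-linked sums of 0.129 and 0.0331 CPM, had the lowest *Ogt* of its groups as well. The part of embryo sex in the *Ogt* values was not tested.

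The genes around the pathway were described by lists. Of 11 genes that supply its substrates, 2 were higher and 3 lower in +/+ axons by edgeR, against 30.1% and 27.4% of all genes, with a median log2 fold change of -0.30. *Slc2a1*, a glucose transporter, had 1.97 (adjusted p = 0.0036) and *Glul*, glutamine synthetase, 0.77 (adjusted p = 0.011). *Hk1*, the neuronal hexokinase, had -1.79 and *Acly*, which makes cytosolic acetyl-CoA, -1.78. Of 9 genes that salvage or degrade amino sugars, 6 were higher and 0 lower, with a median of 1.00, where the median of all genes was 0.07. At an unadjusted p under 0.05, 7 of the 9 were higher and 0 lower in edgeR, where 62.2% of all genes passed in either direction. Both settings of DESeq2 called 6 and voom 8, and the share of all genes called by these tools is not given here. *Renbp*, the renin-binding protein that is also an N-acylglucosamine epimerase, rose with 2.21 (adjusted p = 0.00065) and *Gnpda2*, a glucosamine-6-phosphate deaminase, with 1.42 (adjusted p = 0.00034). The summed mural and astroglial markers were higher in the same axonal libraries, as given above, and their part in these lists was not tested.

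Among 23 genes of the use, transport and interconversion of UDP-GlcNAc, a list that also holds the *Uap1* paralog *Uap1l1*, 6 were higher and 8 lower in +/+ axons, where 30.1% and 27.4% of all genes were, with a median of -0.01. *Mgat4a* and *Mgat3*, which branch and bisect N-glycans, had log2 fold changes of -2.47 and -2.20, whereas *Uap1l1* had 1.51 and *Ext1*, a heparan sulfate polymerase, 1.19. *Uap1l1* went from 19.1 ± 1.55 to 54.5 ± 16.8 CPM while *Uap1* was lower in each axonal library than in any somatodendritic one. Of 10 partners and substrates of Ogt, 7 were lower and 1 higher, where 27.4% and 30.1% of all genes were, with a median of -0.73. *Trak1*, the adaptor that links mitochondria to kinesin, had -1.84 (edgeR adjusted p = 0.00016) and *Tet1*, an oxidase of methylcytosine, -1.43, and *Ppp1r12a*, a myosin phosphatase subunit, had 0.75.

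The study also examined the modification of eIF4G by Ogt, so the transcripts of the cap-binding complex were listed too. Of 6 genes, 3 were lower in +/+ axons by edgeR and 0 higher, where 57.5% of all genes were called in either direction. The count of called genes was 5 with library totals alone, with a minimum of 10 counts, and without +/+ axonal library 4, *Hnrnpr*-/- axonal library 1 or *Hnrnpr*-/- axonal library 3. *Eif4g1*, the scaffold eIF4G, had a log2 fold change of -0.76 (adjusted p = 0.00094), *Eif4g3* -1.44 (adjusted p = 5.6e-05) and the helicase *Eif4a2* -0.98 (adjusted p = 0.0016). The values of the others were 0.24 for *Eif4e*, 0.50 for *Eif4a1* and 0.53 for *Pabpc1*, with adjusted p values of 0.25, 0.067 and 0.064. At an unadjusted p under 0.05 the count was 5 of 6, against 62.2% of all genes, with *Eif4a1* and *Pabpc1* among them as higher. DESeq2 called 3 and voom 4, and here too the share of all genes called by these tools is not given. For the genotype, *Eif4g1* went from 417 ± 26.7 to 389 ± 55.8 CPM in the somatodendritic compartment and from 247 ± 48.6 to 276 ± 22.7 CPM in axons, within the spread of the libraries. Of 5 stress genes 1 was higher in +/+ axons, *Hspa5* with 0.68 (adjusted p = 0.029), and this count ranged from 0 to 3 over the alternatives.

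The counts in *Hnrnpr*-/- motoneurons, by edgeR, are set against 27.5% of all genes called higher and 26.8% called lower. The supply list had 3 higher and 4 lower genes, the salvage list 5 and 0, the UDP-GlcNAc use list 6 and 7, the partners 1 and 7, the cap-binding list 1 and 3, and the stress list 1 and 1. With genotype and library number as a replicate block, or without *Hnrnpr*-/- somatodendritic library 4, the salvage list had 8 called genes. It had 3 without *Hnrnpr*-/- somatodendritic library 1 or 3 or axonal library 4. The partners had 5 called genes without *Hnrnpr*-/- somatodendritic library 1 or axonal library 3. The stress list had 1 or 2 called genes in most alternatives and at most 3. In the genotype comparisons 0 genes of these 6 lists were called in either compartment or in the difference between them, by edgeR, DESeq2 or voom. At an unadjusted p under 0.05, edgeR gave 0 in the somatodendritic compartment, 1 in axons (*Tet2*, -0.65) and 1 for the difference (*Ctps2*, 0.46), both named after their values were seen.

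**Figure D5:**
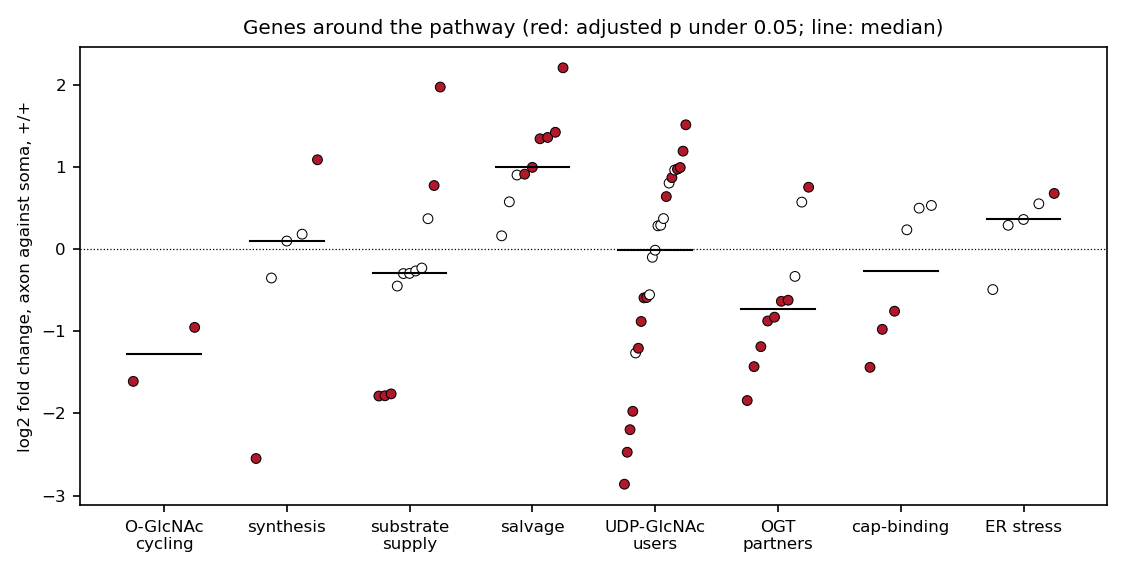
Log2 fold change of axonal against somatodendritic RNA in +/+ motoneurons (vertical axis) for each gene of 8 lists (horizontal axis); red points have an adjusted p under 0.05 by edgeR and lines are medians. The salvage genes lie between 0.16 and 2.21, whereas 7 of the 10 Ogt partners were called lower, where 27.4% of all genes were.

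Among 11227 genes with a mean of at least 10 CPM, those whose log2 CPM followed *Ogt* most closely over the 16 libraries were *Lgr4* (Pearson r = 0.97), *Pogz* (0.96), *Pde7a* (0.96), *Adamts3* (0.95) and *Tcp11l1* (0.95). For *Oga* they were *Ephb6* (0.98), *Lrrc3*, *Pomk* and *Epha8* (0.97 each) and *Otof* (0.97). With group means removed the correlations were 0.83 to 0.92 for the first 5 and 0.89 to 0.98 for the second 5. *Lgr4* had 44.2 ± 6.13 CPM in +/+ somatodendritic libraries against 21.6 ± 4.11 CPM in +/+ axons, and *Ephb6* 112 ± 10.7 and 42.8 ± 18.9 CPM. None of these genes was in both sets of 5. By Spearman correlation 3 of the 5 genes for *Ogt* and 1 of the 5 for *Oga* stayed among the first 5, and without the minimum level 4 and 3 did.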

How the data were processed

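RNA of 16 libraries was read from the count table that the authors deposited. Its values are expected counts, made by the authors with Cutadapt, STAR and featureCounts on exons of the RefSeq annotation of GRCm39, in the reverse-strand setting and with reads of several places divided among them. Values were rounded to whole numbers and given as TMM-scaled CPM. The kit, SMART-Seq v4, does not mark strand, and axonal cDNA was amplified with more PCR cycles. Groups came from sample titles. A figure legend of the study calls the 4 libraries of a group biological replicates. Its reporting summary says that the conditions of an experiment came from 1 batch of cells. Neither these nor the titles say which libraries share a batch. The members and lists were chosen with earlier results of these data known.

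In R 4.3.3, edgeR 4.0.16 was fitted to all 16 libraries with a mean per group, after its expression filter, with a two-sided quasi-likelihood test and Benjamini-Hochberg adjustment over 19964 genes at 0.05. The model was tested on simulated data. A standard error is the log2 fold change divided by the square root of F. Alternatives were RLE size factors, library totals alone, no filter, a minimum of 10 counts per library in 1 group, unrounded counts, DESeq2 1.42.0 in both settings, limma 3.58.1 voom with library weights, only the groups compared, a replicate block and each library left out. Library numbers were checked for pairing by the correlation of deviations of same-numbered somatodendritic and axonal libraries. In *Hnrnpr*-/- motoneurons the 4 pairs had 0.13 to 0.60, and pair 2 (0.13) lay below the highest value with another number (0.28). In +/+ motoneurons pairs 1 to 3 had 0.30 to 0.34, each above its highest value with another number, and pair 4 had 0.06. Across genotypes number 3 had 0.61 in somatodendritic and 0.85 in axonal libraries, but the lowest pairs had 0.01 and 0.04. For axons against soma and the difference between compartments, the replicate block joined libraries of 1 genotype and number, in both genotypes. For the genotype it joined libraries of 1 number across genotypes, although those lowest pairs hardly correlated. Printed values are from the fit without the block, which leaves out any pairing, unless the block is named. Named list genes are at most the 2 called genes of each direction with the largest fold change in +/+ motoneurons and a mean of at least 10 CPM, and all 6 cap-binding genes. Transcripts were compared with BLAST+ 2.17.0+ over at least 100 bases at 95% identity. Promoters are from RefSeq.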

Additional observations from a re-analysis of the deposited data

Results flagged for a closer look

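Of 36 sets of 4 libraries examined, 2 held a library far from the other 3, and chance gives about 1 in 20. *Pgm3* was at 43.7 CPM in *Hnrnpr*-/- somatodendritic library 4, against 26.6 to 27.7 CPM in the other 3 libraries. The ratio of *Gfpt1* to *Gfpt2* per kb was 8.46 in +/+ somatodendritic library 2, against 4.26 to 4.76 in the others, where *Gfpt2* was at 6.34 CPM.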

How the results depend on the processing

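*Ogt*, *Oga* and *Gfpt1* in both genotypes and *Gnpnat1* in +/+ motoneurons were called, with 1 direction, in all 26 alternatives. *Gnpnat1* in *Hnrnpr*-/- motoneurons was called in 3 of 26 and *Uap1* in +/+ motoneurons in 3 of 26. Library totals alone moved the median log2 fold change of all genes in +/+ motoneurons from 0.07 to 0.22. The fit of only the groups compared was not run for the difference between compartments.

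Genes called for the genotype in axons numbered 5 with DESeq2 in both settings, 1 with voom, 1 with only the groups compared and 1 to 3 without 1 library. They numbered 1 with the replicate block, which here joined libraries by number across genotypes. For the difference between compartments DESeq2 with default settings called 1. The cause was not tested.

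With the replicate block *Uap1* in +/+ motoneurons was called (adjusted p = 0.0489) and *Gfpt2* there had a log2 fold change of -0.05095. The block changed no other call of a member. The difference between compartments for *Pgm3* was 0.00497 with RLE size factors, 0.01042 without a filter, 0.005096 and 0.004978 with DESeq2 in default and shrunken settings and 0.08461 with the block.

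Values that crossed 0 when 1 library was left out were not called in any of these fits. Between axons and soma in +/+ motoneurons they ranged from -0.2949 to 0.3506 for *Gfpt2* and from -0.03623 to 0.3723 for *Pgm3*. For the genotype in the soma they ranged from -0.2028 to 0.09451 for *Ogt*, -0.006874 to 0.2587 for *Gfpt2*, -0.173 to 0.1464 for *Pgm3* and -0.05415 to 0.09349 for *Uap1*. In axons they ranged from -0.1432 to 0.1234 for *Ogt*, -0.09912 to 0.5903 for *Oga*, -0.5364 to 0.009901 for *Gnpnat1* and -0.1603 to 0.3078 for *Pgm3*. The difference between compartments ranged from -0.1374 to 0.2059 for *Ogt*, -0.3111 to 0.3783 for *Oga* and -0.1946 to 0.2579 for *Pgm3*.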
